A study of Mus musculus with 2 samples.

Results

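Dkk2, Dkk3, Sfrp1, Sfrp2 and Frzb encode secreted proteins that act on Wnt signalling outside the cell, and their transcripts were followed here through the stromal cells of the mouse colon and small intestine. These 5 genes were chosen by name from the 18545 genes listed for either tissue, and all 5 were listed in both. Both groups were healthy, untreated mice. Live cells negative for EpCAM and CD45, which leaves out epithelial and immune cells, were sorted and sequenced as single cells in droplets with a 3' kit, and each tissue gave 1 library. The labels do not give the strain, age, sex or number of animals, and the colon was digested for 60 minutes and the small intestine for 45 minutes. Tissue, animals and their sex, digestion and library cannot be told apart in this design. No difference below has a replicate check, and all intervals cover counting error only.

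Wnt proteins bind Frizzled receptors together with the co-receptors LRP5 and LRP6, and the resulting signal keeps the stem cells of the intestinal crypt dividing. The secreted Frizzled-related proteins, to which Sfrp1, Sfrp2 and Frzb (also called Sfrp3) belong, carry a domain like the Wnt-binding domain of Frizzled and can bind Wnt proteins before they reach the receptor. Dickkopf proteins such as Dkk2 instead bind LRP5 and LRP6, with Kremen proteins as partners, whereas Dkk3 is the most divergent Dickkopf protein and its action on Wnt signalling is less settled. In the gut wall, fibroblasts are a source of Wnt proteins, of R-spondins that strengthen the signal, and of inhibitors.

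The colon library held 6018 cells and 40684070 UMIs (tags of single captured RNA molecules), and the small intestinal library held 9359 cells and 58134526 UMIs. The authors' labels were used as deposited. They name CD81- FBs (3631 colon and 2823 small intestinal cells), CD81+ trophocytes (875 and 1913) and PDGFRa-high SEMFs (1105 and 1109), which are the 3 fibroblast labels, and SMCs (125 and 468), LECs (217 and 2498) and BECs (53 and 524). Marker genes went with most labels: SMCs had the highest level of 6 of 6 smooth muscle markers in both libraries, SEMFs of 7 of 8 SEMF markers and trophocytes of 5 of 7 trophocyte markers. Lymphatic markers were highest in LECs for 6 of 6 in the colon and 5 of 6 in the small intestine, and blood endothelial markers in BECs for 7 of 7 and 6 of 7. Only 1 of the 5 CD81- FB markers was highest in the small intestinal CD81- FBs, against 4 of 5 in the colon. Adamdec1 and Ccl11 were highest in the small intestinal SMCs, whose 5 pan-fibroblast genes summed to 13649 CPM (a gene's UMIs per 1000000 UMIs of the label) against 5937 CPM in colon SMCs. Xist-only UMIs marked 2700 colon cells and Y-linked UMIs without Xist 1751, so the colon library holds cells of both kinds. In the small intestine 73.7% of cells had a Y-linked UMI, and Xist was not among the genes listed for that library. The libraries shared 21 cell barcodes.

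The 5 genes lie on 4 chromosomes. In the GENCODE annotation of GRCm38, the assembly also called mm10, Dkk2 spans chr3:132085292-132180304 on the plus strand with 4 exons, Dkk3 spans chr7:112116017-112159057 on the minus strand with 8 exons, and Sfrp1 spans chr8:23411502-23449632 on the plus strand with 3 exons. Frzb spans chr2:80411970-80447625 on the minus strand with 6 exons. Sfrp2 spans chr3:83766321-83774316 on the plus strand with 3 exons, and the antisense gene Gm26771 overlaps its 3' end on the opposite strand. A 3' count depends on that end, and whether counting used strand is not given in the sources used here. Gm26771 had 133 UMIs in the colon against 1107 of Sfrp2, and 70 of the 103 colon CD81- FBs with a Gm26771 UMI also had an Sfrp2 UMI. Whether reads of the pair were fully separated was not tested, which leaves the Sfrp2 values uncertain to that extent. In the small intestine Gm26771 had 19 UMIs and no cell held both genes.

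Dkk2 and Sfrp2, both on chromosome 3, carried the largest tissue differences of the 5 genes, in opposite directions, and their upstream sequences are shown for that reason. The RefSeq windows (GRCm38.p6, plus strand, 5' to 3') cover the 250 bases before each start, chr3:132085042-132085291 for Dkk2 and chr3:83766071-83766320 for Sfrp2. Capitals mark the motif TATAAA.
Dkk2: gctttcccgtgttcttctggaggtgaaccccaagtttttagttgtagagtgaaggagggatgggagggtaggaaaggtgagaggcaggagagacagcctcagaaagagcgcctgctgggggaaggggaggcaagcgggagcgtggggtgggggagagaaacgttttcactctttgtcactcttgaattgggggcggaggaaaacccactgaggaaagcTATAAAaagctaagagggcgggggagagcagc
Sfrp2: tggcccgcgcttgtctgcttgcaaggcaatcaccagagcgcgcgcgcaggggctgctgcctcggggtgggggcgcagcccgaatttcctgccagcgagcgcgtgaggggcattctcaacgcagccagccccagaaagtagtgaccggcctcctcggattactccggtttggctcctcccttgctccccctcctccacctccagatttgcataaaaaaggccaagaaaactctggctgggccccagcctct
The Dkk2 window is 55.6% G or C and the Sfrp2 window 63.6%, against a median of 52.4% over 32851 mouse promoter windows of the same length. TATAAA was found 32 bases before the Dkk2 start (position -32) and not in the Sfrp2 window, and 12.4% of all windows hold it on either strand. CTTTGAT, the letters of the TCF/LEF motif, was in neither window, and 3.21% of all windows hold it. These matches describe letters only, and no measurement here bears on the promoters. Windows for 3 of the 5 genes were matched in the reference table.

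Sfrp1 was the most abundant of the 5 transcripts in CD81- FBs and trophocytes. Its level in the colon was 911 CPM in CD81- FBs (95% Poisson interval 899.6 to 923), 395 CPM in trophocytes, 148 CPM in BECs, 141 CPM in SMCs, 71.3 CPM in LECs and 24.7 CPM in SEMFs. Each step in that order exceeded the counting intervals except the one from BECs to SMCs. The small intestinal order was CD81- FBs with 1482 CPM (1465 to 1498), trophocytes with 999 CPM, SMCs with 985 CPM, SEMFs with 68.8 CPM, LECs with 26.8 CPM and BECs with 24.6 CPM. There the pairs trophocytes and SMCs, and LECs and BECs, did not differ beyond their intervals. CD81- FBs thus exceeded SEMFs of the same library by 36.8-fold in the colon and 21.5-fold in the small intestine.

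Most CD81- FBs held an Sfrp1 UMI, 90.7% of them in the colon (median depth 6697 UMIs per cell) and 98.8% in the small intestine (median 6977 UMIs). After each cell was thinned to 2000 UMIs, which removes differences in depth, the shares were 70.0% and 88.1%. Trophocytes followed with 40.9% and 74.7% of thinned cells, and SEMFs stood at 3.83% and 4.36%. The 3'-counted molecules can be compared between genes without a length term, since each molecule gives 1 tag. On that scale Sfrp1 made up 76.0% of the summed UMIs of the 5 genes in colon CD81- FBs and 78.7% in small intestinal CD81- FBs, and 79.7% and 74.3% in trophocytes. In SEMFs it made up 6.72% and 23.8%.

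**Figure D1:**
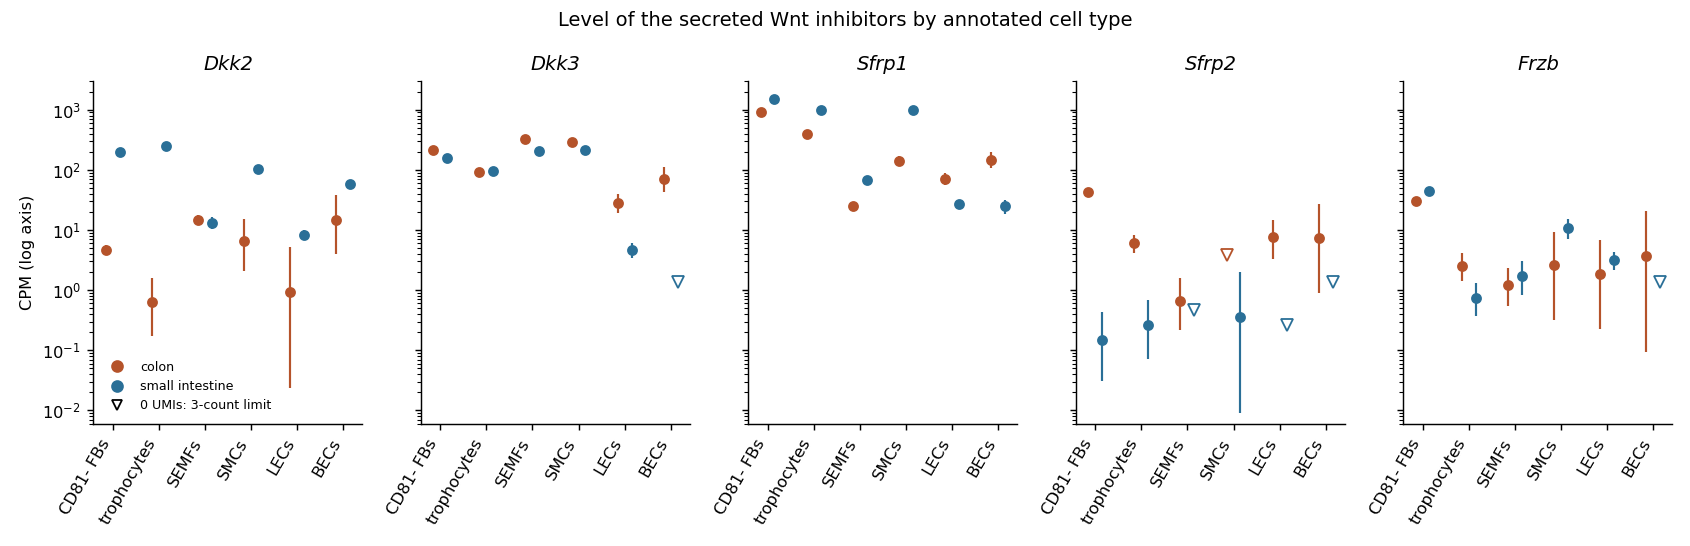
Level of each gene in CPM (log axis) in the 6 compared cell types, with colon in brown and small intestine in blue. Bars are 95% Poisson intervals of 1 library each, and open triangles mark 3 counts where no UMI was seen. Dkk2 in CD81- FBs lies at 4.65 in the colon and 198 in the small intestine, whereas Sfrp2 lies at 42.7 and 0.149.

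Sfrp1 was lower in the colon in each fibroblast label. Over the pooled fibroblasts colon cells had 655 CPM and small intestinal cells 1087 CPM, a log2 colon to small intestine ratio of -0.73 (-0.75 to -0.71), which does not reach the 2-fold used to call a difference. Within labels the log2 ratio was -0.70 in CD81- FBs, -1.34 in trophocytes (-1.40 to -1.28) and -1.48 in SEMFs (-1.73 to -1.23). The SEMF value rested on cells rich in UMIs. In the small intestinal SEMFs, 94 of 1109 cells held the 449 Sfrp1 UMIs, with a median of 1 and a highest count of 38, and without the 6% of cells with the most UMIs in each library the log2 ratio was -0.44. Small intestinal SEMFs with an Sfrp1 UMI also held Fbln1, a matrix gene, in 40.4% of thinned cells against 3.3% of those without, and the complement gene C4b in 27.7% against 3.1%.

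Outside the fibroblasts the direction of the Sfrp1 ratio was mixed. Colon SMCs stood at 141 CPM and small intestinal SMCs at 985 CPM, a log2 ratio of -2.80 (-3.09 to -2.53). The pan-fibroblast genes of that label were also higher in the small intestine, as given above, and within the small intestinal SMCs the 324 cells with an Sfrp1 UMI had Dcn at 7883 CPM and Myh11 at 1273 CPM, against 4191 and 2172 CPM in the 131 cells without. Their part in the SMC ratio was not tested. LECs went the other way, with 71.3 CPM in colon LECs and 26.8 CPM in small intestinal LECs, a log2 ratio of 1.41 (1.03 to 1.78). Only 18 of 217 colon LECs (8.29%) and 93 of 2498 small intestinal LECs (3.72%) held a UMI, and the 5 pan-fibroblast genes summed to 1723 and 769 CPM in these LECs. Small intestinal LECs with an Sfrp1 UMI held Dcn in 45.7% of thinned cells, against 17.01% of the others. With only the Y-linked colon cells the LEC log2 ratio was 0.44. The 40 Sfrp1 UMIs of colon BECs came from 3 of 53 cells.

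Sfrp2 was seen almost entirely in the colon, and there mainly in CD81- FBs. The colon level was 42.7 CPM in CD81- FBs (40.1 to 45.3), 7.51 CPM in LECs from 8 UMIs, 7.42 CPM in BECs from 2 UMIs, 5.97 CPM in trophocytes and 0.672 CPM in SEMFs, with no UMI in SMCs, a count that allows up to 3.88 CPM. CD81- FBs stood 5.68-fold above the next type, and LECs, BECs and trophocytes did not differ beyond their intervals. In the small intestine the whole library held 8 Sfrp2 UMIs in 7 cells: 3 UMIs in CD81- FBs, 4 in trophocytes and 1 in SMCs. SEMFs, LECs and BECs had none, which allows up to 0.46 CPM, 0.268 CPM and 1.37 CPM. The pooled fibroblasts had 1097 UMIs against 7, a log2 ratio of 7.41 (6.36 to 8.73), or 169.7-fold.

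Few colon cells carried Sfrp2 even where it was highest. UMIs were found in 441 of 3631 CD81- FBs (12.1%), with a median of 1 and a highest count of 15 in a cell, and in 1.60% of trophocytes and 0.452% of SEMFs. CD81- FBs held 95.2% of all Sfrp2 UMIs of the colon. One trophocyte held 15 of the 38 UMIs of that label, so the trophocyte level rests in part on a single cell. In the small intestine 0.106% of CD81- FBs held a UMI.

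Frzb followed the CD81- FB label in both tissues. Its level there was 30.4 CPM in the colon (28.3 to 32.7) and 44.9 CPM in the small intestine (42.0 to 47.9), and 96.2% and 91.1% of each library's Frzb UMIs came from this label. Every other type of the colon lay between 1.21 CPM (SEMFs) and 3.71 CPM (BECs), and no neighbours among them differed beyond their intervals. In the small intestine SMCs followed with 10.7 CPM, LECs with 3.12 CPM, SEMFs with 1.69 CPM and trophocytes with 0.732 CPM, and BECs had no UMI. CD81- FBs exceeded trophocytes of the same library by 12.1-fold in the colon and 61.3-fold in the small intestine. Positive cells made up 16.1% and 23.0% of CD81- FBs and 1.26% and 0.575% of trophocytes, mostly with 1 UMI per cell.

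Across the pooled fibroblasts Frzb had similar levels, 20.2 CPM for the colon and 22.2 CPM for the small intestine, with a log2 ratio of -0.14 (-0.28 to -0.0023). Relative to the median gene, whose log2 ratio was -0.17, the value was 0.033, so its direction was not settled. Within CD81- FBs the log2 ratio was -0.56 (-0.70 to -0.42).

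Dkk2 showed the reverse of Sfrp2. The small intestinal level was 248 CPM in trophocytes (240.1 to 256), 198 CPM in CD81- FBs (192 to 205), 104 CPM in SMCs, 57.5 CPM in BECs, 13.2 CPM in SEMFs and 8.30 CPM in LECs, and each step exceeded the counting intervals. In the colon it reached 14.8 CPM in BECs from 4 UMIs, 14.7 CPM in SEMFs (12.0 to 17.7), 6.47 CPM in SMCs, 4.65 CPM in CD81- FBs, 0.939 CPM in LECs and 0.628 CPM in trophocytes. Among the fibroblast labels trophocytes were thus highest in the small intestine and lowest in the colon, where they had 4 UMIs in 875 cells.

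Dkk2 differed between tissues by label. The log2 ratio of colon to small intestine was -8.62 in trophocytes (-10.50 to -7.27), -5.41 in CD81- FBs (-5.69 to -5.15) and -4.01 in SMCs, and 0.15 in SEMFs (-0.27 to 0.58). SEMFs were thus the fibroblast label without a detectable tissue difference at this depth: 47 of 1105 colon SEMFs (4.25%) and 42 of 1109 small intestinal SEMFs (3.79%) held a UMI. Positive cells made up 0.229% of trophocytes and 1.79% of CD81- FBs in the colon, and 44.1% and 31.1% in the small intestine. Positive small intestinal cells held a median of 3 UMIs and up to 65 in CD81- FBs. Over the pooled fibroblasts colon cells had 5.92 CPM and small intestinal cells 187 CPM, a log2 ratio of -4.98 (-5.18 to -4.79).

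Small intestinal BECs held Dkk2 above the level of the other endothelial label. A UMI was found in 52 of 524 BECs (9.92%, Clopper-Pearson interval 7.50 to 12.8) at a median depth of 3651.5 UMIs per cell, against 26 of 2498 LECs (1.04%) at 4117.5 UMIs. After thinning the shares were 8.54% and 0.468%. In the same BECs the level of Dkk2, 57.5 CPM, exceeded that of Sfrp1, 24.6 CPM, although in CD81- FBs of that library Sfrp1 was far the more abundant. Dkk2-positive BECs differed from the other BECs in some genes of vessel type, which were chosen after the values had been seen. The genes named next are only part of the artery and vein genes looked at. The others, and the capillary genes looked at, are not reported here, so no vessel type is assigned to these cells. Of the artery genes, the gap junction gene Gja5 was found in 39.5% of the 38 thinned cells with Dkk2 and in 5.16% of the 407 without, Bmx in 36.8% and 7.37%, and Sox17 in 60.5% and 33.9%. Of the vein genes, Nr2f2 was found in 5.26% and 35.6%, and Selp in 5.26% and 44.7%. The fibroblast transcript Dcn was found at similar shares, 18.4% and 16.5%. The other pan-fibroblast genes are not given for these cells, and the part of fibroblast RNA in their Dkk2 was not tested. Colon BECs had 4 Dkk2 UMIs in 3 of 53 cells, and their log2 ratio to the small intestine was -1.95 (-3.85 to -0.56). The 11 colon BECs with only Y-linked UMIs held no Dkk2 UMI, and their 95% Poisson interval reaches 64.9 CPM, above the small intestinal level, so no direction can be read from them.

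Dkk3 was the most evenly spread of the 5 genes over the mesenchymal labels. In the colon it was highest in SEMFs with 327 CPM (314 to 340.0), followed by SMCs with 294 CPM, CD81- FBs with 210.4 CPM, trophocytes with 91.6 CPM, BECs with 70.5 CPM and LECs with 28.2 CPM. SEMFs and SMCs did not differ beyond their intervals, nor did trophocytes and BECs, and 8 of the 19 BEC UMIs came from 1 cell. In the small intestine the level was 216 CPM in SMCs, 206 CPM in SEMFs, 158 CPM in CD81- FBs, 95.7 CPM in trophocytes and 4.64 CPM in LECs, with none in BECs, which allows up to 1.37 CPM. SMCs and SEMFs again did not differ beyond their intervals. Trophocytes were the lowest fibroblast label in both tissues, 3.57-fold below SEMFs in the colon and 2.15-fold below in the small intestine. A UMI was found in 81.8% of colon SEMFs and 63.5% of small intestinal SEMFs. Dkk3 gave 88.8% and 71.1% of the summed UMIs of the 5 genes in SEMFs, against 17.5% and 8.41% in CD81- FBs.

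The Dkk3 level of the pooled fibroblasts was 213 CPM for the colon and 143 CPM for the small intestine, with a log2 ratio of 0.57 (0.53 to 0.62), below the 2-fold rule. The log2 ratio was 0.67 in SEMFs (0.57 to 0.77), 0.44 in SMCs, 0.41 in CD81- FBs and -0.064 in trophocytes (-0.20 to 0.076), where it was 0.049 relative to the median gene. In LECs Dkk3 had 30 and 52 UMIs, at 28.2 and 4.64 CPM, in labels whose pan-fibroblast genes were also higher in the colon, as given above for Sfrp1.

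**Figure D2:**
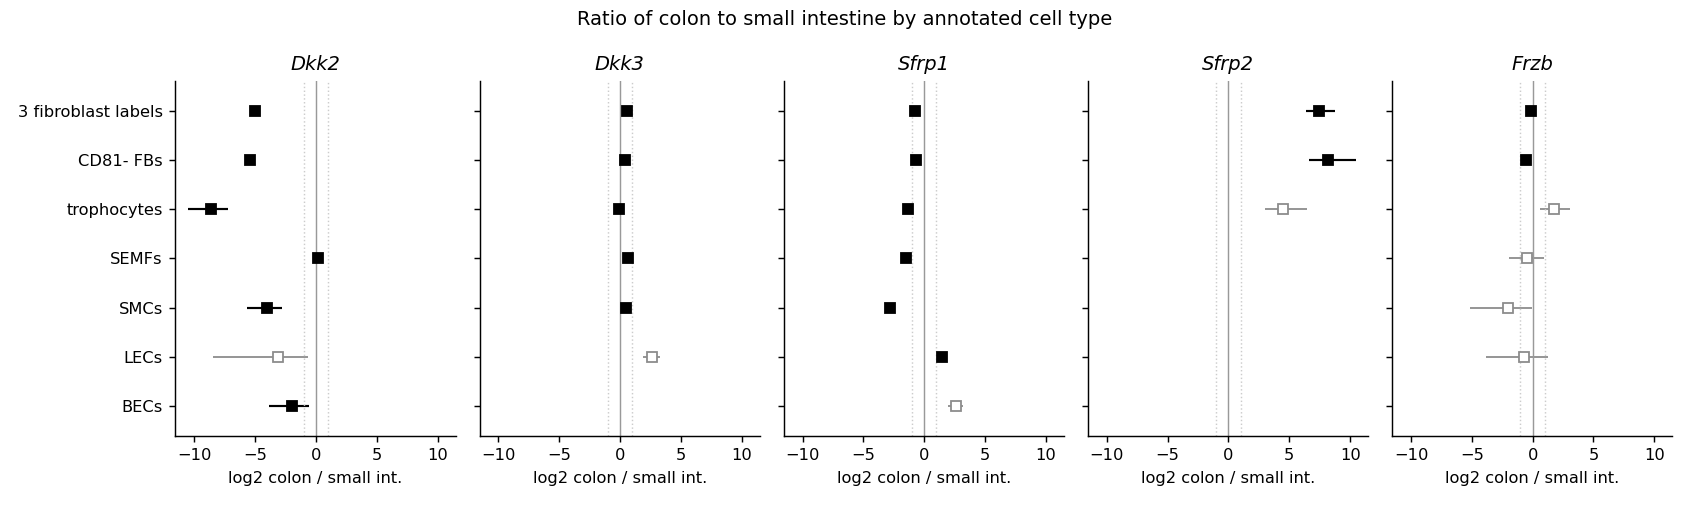
Log2 ratio of colon to small intestine for each gene in the pooled fibroblasts and in the 6 types, with 95% counting intervals. Filled squares have at least 100 UMIs in both libraries together, open grey squares have fewer, and pairs with no UMI in 1 library are not drawn. Dotted lines mark 2-fold. Dkk2 lies at -8.62 in trophocytes and 0.15 in SEMFs.

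A difference was called where a gene had at least 100 UMIs in both libraries together, a ratio of at least 2-fold and a 95% interval on the same side of 0. In the pooled fibroblasts all 5 genes could be compared. Of them 1, Sfrp2, was called higher in the colon, where 6.88% of 13307 genes were, and 1, Dkk2, was called higher in the small intestine, where 9.47% were. The same calls were made in CD81- FBs (background 6.46% and 10.4%). In trophocytes 3 of the 5 had enough UMIs, and 2, Dkk2 and Sfrp1, were called higher in the small intestine (background 8.24%) and 0 in the colon (4.23%). In SEMFs 3 had enough UMIs, with 1, Sfrp1, called higher in the small intestine (15.1%) and 0 in the colon (5.36%). In SMCs 3 had enough UMIs, with 2, Dkk2 and Sfrp1, called higher in the small intestine (17.3%) and 0 in the colon (3.37%). In LECs only Sfrp1 had enough UMIs and was called higher in the colon (3.45%), and in BECs only Dkk2, called higher in the small intestine (18.7%). The median log2 ratio of all compared genes was -0.17 in the pooled fibroblasts and -0.11 to -0.33 in the single types.

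The colon library held cells with Xist and cells with Y-linked UMIs, which allowed levels to be compared within 1 library. Frzb in colon CD81- FBs stood at 38.1 CPM in the 1615 Xist-only cells and at 21.8 CPM in the 1040 Y-linked cells, a log2 ratio of 0.80 (0.54 to 1.07). Its share of positive cells was 20.6% and 12.6%. Over the pooled fibroblasts the Frzb log2 ratio of colon to small intestine was 0.15 with Xist-only and -0.62 with Y-linked colon cells, so its direction depended on which colon cells were used. Sfrp1 differed less, with 975 and 804 CPM in CD81- FBs, and went the other way in trophocytes, with 343 and 434 CPM. Sfrp2 stood at 44.6 and 41.0 CPM in CD81- FBs, and in trophocytes at 9.64 CPM from 30 UMIs and 2.39 CPM from 5 UMIs. Dkk2 stood at 5.16 and 4.34 CPM in CD81- FBs, both far below the 198 CPM of the small intestine. Dkk3 stood at 226 and 199 CPM. How many animals stand behind each kind of cell is not stated, so sex and animal cannot be told apart.

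**Figure D3:**
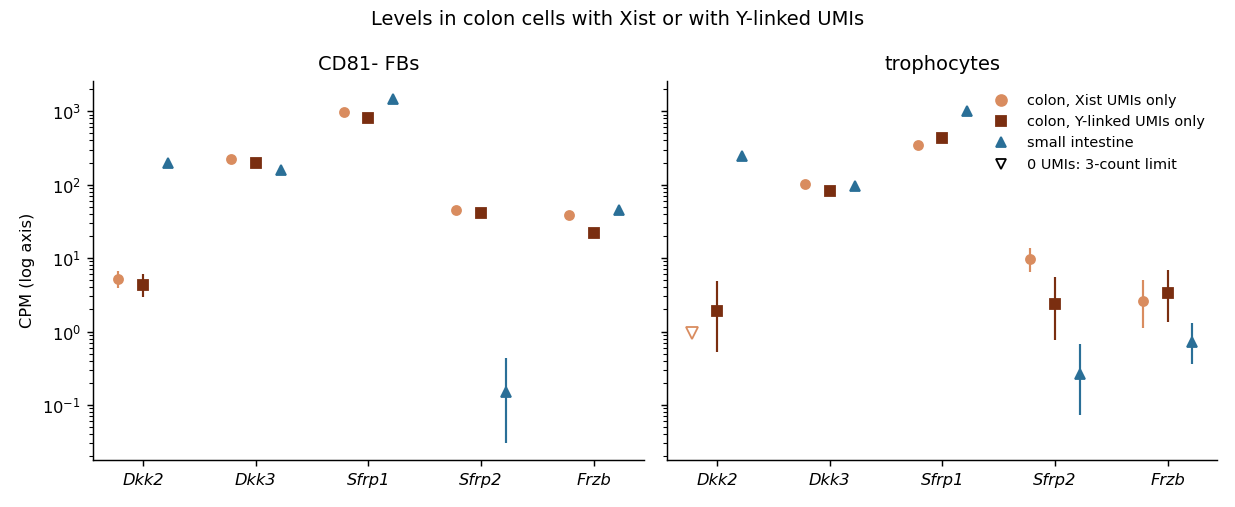
Level of each gene in CPM (log axis) in CD81- FBs and trophocytes, for colon cells with only Xist UMIs (circles), colon cells with only Y-linked UMIs (squares) and small intestinal cells (triangles). Bars are 95% Poisson intervals, and the open downward triangle marks 3 counts where no UMI was seen. The 2 kinds of colon cells lie close together for Dkk2 and Sfrp2 in CD81- FBs and apart for Frzb, at 38.1 and 21.8.

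In single cells thinned to 2000 UMIs, most cells of each fibroblast label held 0 or 1 of the 5 genes. None was found in 17.6% of colon CD81- FBs, 50.2% of colon trophocytes and 50.6% of colon SEMFs, and in 6.93%, 18.2% and 64.9% of the same small intestinal labels. The mean number per cell was 1.15, 0.563 and 0.526 in the colon and 1.45, 1.19 and 0.376 in the small intestine. These numbers depend on depth. Without thinning the means were 1.89, 1.10 and 0.984 in the colon and 2.15, 1.87 and 0.765 in the small intestine. Sfrp1 alone was the most frequent combination in CD81- FBs, with 41.2% of the colon and 45.0% of the small intestinal cells. Dkk3 with Sfrp1 came next in both, with 21.1% and 17.5%. Dkk2 with Sfrp1 made up 17.7% of small intestinal trophocytes. Dkk3 alone made up 43.1% of colon SEMFs. No thinned cell of these labels held all 5, and at full depth 1 colon CD81- FB did.

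**Figure D4:**
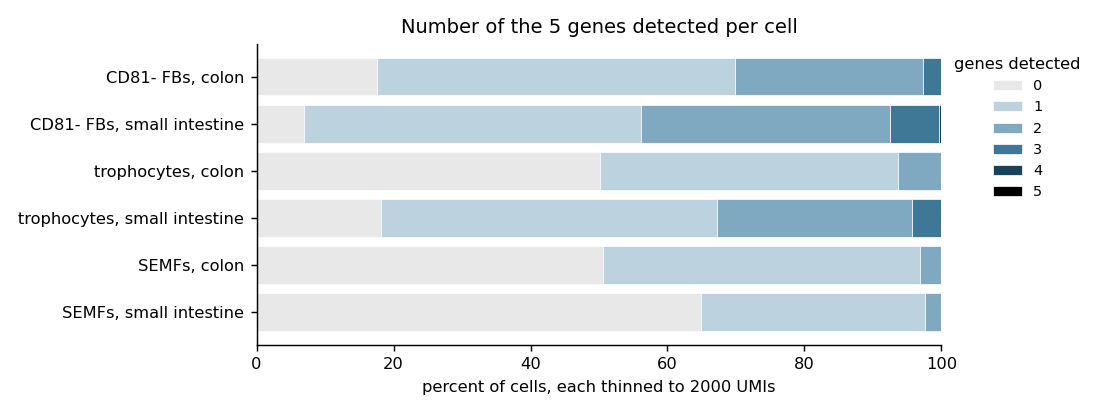
Percent of cells of each fibroblast label (bars) in which 0 to 5 of the genes were detected, after thinning each cell to 2000 UMIs. The share with none is 6.93% in small intestinal CD81- FBs and 64.9% in small intestinal SEMFs.

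Pairs of genes were compared with the number of double-positive cells that independent detection would give within a label. The interval given covers the counting error of the double-positive cells only. With at least 5 cells expected, 22 pairs could be compared, and for 18 the interval held a ratio of 1. Dkk2 and Sfrp1 were found together in 417 small intestinal trophocytes against 371.8 expected, a ratio of 1.12 (1.03 to 1.22). Sfrp1 was found in 83.7% of trophocytes with Dkk2 and in 71.4% of those without. Without the 6% of cells with the most UMIs the interval held 1 (0.998 to 1.196). Sfrp1 and Sfrp2 were found together less often in colon CD81- FBs, in 105 cells against 146.9, a ratio of 0.715 (0.586 to 0.862), and so were Sfrp2 and Frzb, in 4 against 11.0, a ratio of 0.365 (0.0994 to 0.933). Dkk2 and Frzb in small intestinal CD81- FBs were found in 32 against 48.0, a ratio of 0.667 (0.457 to 0.939). At full depth the Sfrp1 and Sfrp2 ratio was 0.920 (0.833 to 1.01), where 90.7% of all cells held Sfrp1. Sfrp2 was still found in 11.2% (10.1 to 12.3) of the cells with Sfrp1 against 21.5% (17.3 to 26.3) of those without. The full-depth ratios of Sfrp2 with Frzb and of Dkk2 with Frzb were 0.480 and 0.639, with both intervals below 1. 

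Genes used as markers of fibroblast positions were compared between cells with and without a UMI of an inhibitor within a label. The position of the cells was not measured. Colon CD81- FBs with Sfrp2 held more Cd81, the surface protein that names the labels, in 12.4% of cells against 5.40% of those without, and more Cd34, a marker of deeper fibroblasts, in 60.0% against 42.1%. They held less Bmp5, a signalling protein of fibroblasts next to the epithelium, in 25.2% against 39.7%, and less Adamdec1, a protease of mucosal fibroblasts, in 71.0% against 88.8%. Colon CD81- FBs with Frzb held less Cd34, in 30.9% against 43.8%. The same direction was seen in the small intestine, where CD81- FBs with Frzb held Cd34 in 37.1% against 52.9%, and Ackr4, a chemokine scavenger that marks trophocytes, in 0.844% against 6.04%.

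Dkk2 in the small intestine went with more Grem1 and less Pi16. Among trophocytes with Dkk2, Grem1, which encodes an inhibitor of BMP proteins, was found in 86.7% against 65.7% of those without, and Pi16 in 6.43% against 20.8%. Intervals overlapped for Ackr4, Cd81 and Cd34, with Ackr4 in 63.7% against 63.1%, Cd81 in 65.9% against 62.0% and Cd34 in 57.0% against 63.5%. Among CD81- FBs with Dkk2, Grem1 was found in 26.7% against 17.7%, Ackr4 in 10.2% against 4.44%, Cd34 in 59.2% against 49.6%, Cd81 in 1.60% against 1.49%, and Pi16 in 0.891% against 2.76%. Trophocytes with Sfrp1 also held more Grem1 and less Pi16, with Grem1 in 77.5% against 52.7% and Pi16 in 12.5% against 30.2%.

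**Figure D5:**
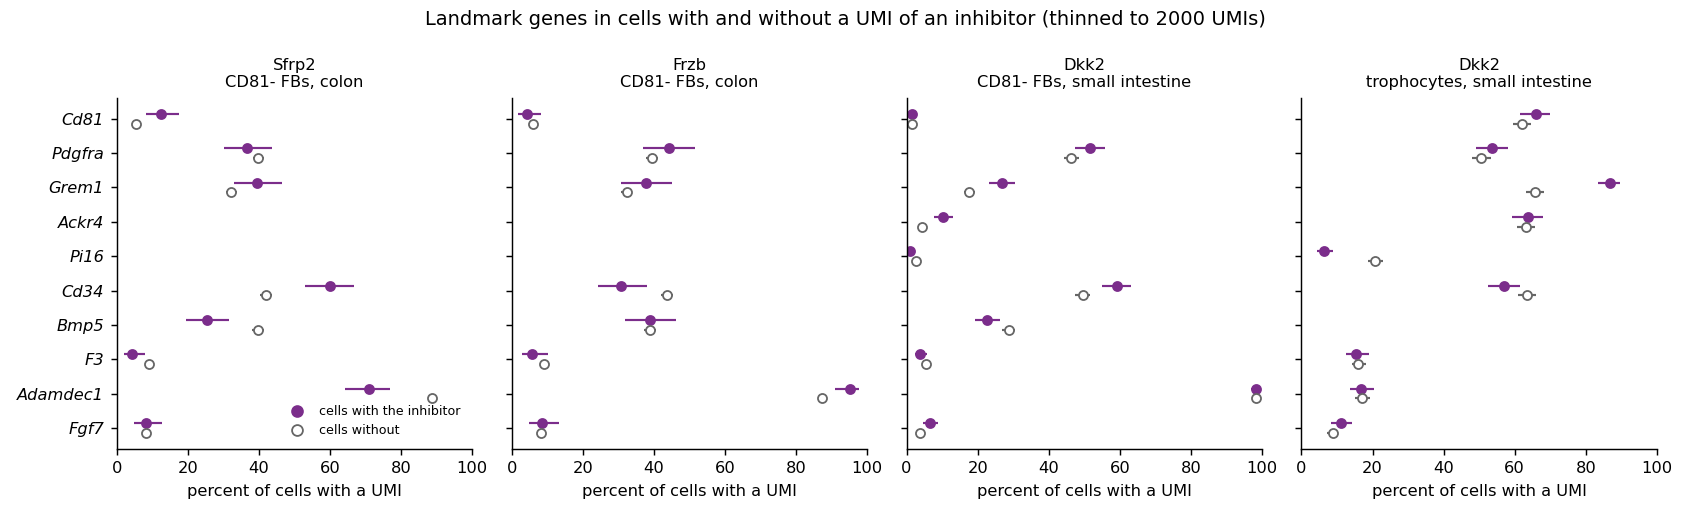
Percent of cells with a UMI of each landmark gene, among cells with (filled) and without (open) a UMI of the named inhibitor, all thinned to 2000 UMIs. Bars are 95% Clopper-Pearson intervals, and landmarks with fewer than 5 double-positive cells expected are not drawn. Grem1 stands at 86.7% and 65.7% in small intestinal trophocytes with and without Dkk2.

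The genes with the largest ratio between positive and negative cells of a label were listed as a description, since they were read from the same cells. In colon CD81- FBs with Sfrp2 the first included Osr1, a transcription factor of the mesenchyme, found in 35.7% against 12.8%, and Stmn2, found in 49.5% against 16.6%. The matrix gene Tnc showed the reverse between Sfrp2 and Frzb. It was found in 4.76% of colon CD81- FBs with Sfrp2 against 45.1% of those without, and in 72.9% of those with Frzb against 41.1%. Stmn2 was likewise found in 5.32% of cells with Frzb against 19.2%. In small intestinal CD81- FBs with Dkk2 the first were Piezo2, a mechanically gated channel, in 16.6% against 3.9%, Lrrtm3 in 16.8% against 5.3%, and Sparcl1 in 46.2% against 19.0%, while the protease gene Mmp10 was found in 0.891% against 18.3%. In small intestinal SMCs the 43 cells with Dkk2 held Ntrk3 in 41.9% against 6.1%. Their smooth muscle genes were lower, with Myh11 at 779 CPM against 1610 CPM and Cnn1 at 128 CPM against 475 CPM.

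The wider Wnt pathway was described in the pooled fibroblasts with lists of other genes, using the same rule and background of 6.88% and 9.47%. Of 13 other inhibitors 4 could be compared, and 2 were called higher in the colon and 1 in the small intestine. Sfrp4, a further secreted Frizzled-related gene, stood at 9.45 and 2.49 CPM (log2 ratio 1.92), Igfbp4 at 1120.5 and 468 CPM (1.26), and Apcdd1, a membrane-bound inhibitor, at 14.7 and 75.0 CPM (-2.35). By label the Igfbp4 log2 ratio was 1.59 in CD81- FBs, 0.65 in trophocytes and -2.05 in SEMFs. Sfrp4 was highest in trophocytes of both tissues, with 49.3 and 5.39 CPM, unlike Sfrp2 and Frzb. Wif1, which binds Wnt proteins, was highest in SEMFs, with 32.8 and 57.8 CPM. Of 19 Wnt ligands 9 could be compared, and 5 were called higher in the colon and 0 in the small intestine, with Wnt2 (3.61), Wnt6 (3.48) and Wnt4 (2.31) showing the largest log2 ratios. Of 5 secreted activators 3 could be compared, and the R-spondin gene Rspo2 was called higher in the small intestine, with 2.96 CPM in the colon against 66.4 CPM (-4.49). Rspo2 reached 140.3 CPM in small intestinal trophocytes, the label in which Dkk2 was also highest.

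Of 17 receptor genes 13 could be compared, with 0 called higher in the colon and 3 in the small intestine, namely Ror1 (-1.74), Fzd3 (-1.38) and Ror2 (-1.08). The receptors of Dickkopf proteins were not among them: Lrp6 stood at 90.5 and 141 CPM (-0.64), Lrp5 at 27.2 and 32.5 CPM (-0.26) and Kremen1 at 42.7 and 31.8 CPM (0.42). Of 12 target genes 9 could be compared, with 2 called higher in each tissue. Lef1 stood at 8.98 and 0.0959 CPM (6.55) and Nkd2 at 5.53 and 2.47 CPM (1.16), whereas Nkd1 (-1.76) and Tnfrsf19 (-1.55) were higher in the small intestine. Axin2, a feedback inhibitor inside the cell, stood at 9.48 and 16.6 CPM (-0.81) and was not called. The median log2 ratio was 0.36 over the other inhibitors, 1.65 over the ligands, -0.76 over the activators, -0.17 over the receptors and -0.31 over the targets, against -0.17 over all genes.

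Likeness of pattern was measured as Pearson's r of log2 of CPM plus 10 over the 12 levels formed by 6 types in 2 libraries, among 6083 genes that reached 50 CPM in any of them. The levels of 1 library share its depth, and r is a description of these points. Dkk3 had the closest partners, Lgals1 (r = 0.99), C1qtnf2 (0.97) and Bmp4 (0.97), and Sfrp1 followed with C4b (0.97) and Dclk1 (0.97). Frzb was most like Fgfr2 (0.92), Dkk2 most like Nkain4 (0.88), Rpl39 (0.88) and Atrnl1 (0.87), and Sfrp2 most like Frmpd4 (0.85), Hapln1 (0.83) and Tafa1 (0.80). Among the 5 genes themselves r ranged from -0.45 for Dkk2 with Sfrp2 to 0.68 for Sfrp1 with Frzb.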

How the data were processed

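Per the labels' protocols, live cells negative for EpCAM and CD45 were sorted and about 16000 cells per library were loaded with a 10x 3' kit. Per the submitters' processing notes, Cell Ranger 7.1.0, Seurat 4 and the mm10 build were named, and filters on cells and genes are not given in the sources used here. The authors deposited raw UMI counts per gene and cell, which gave all main values, and values on a natural log scale, which matched ln(1 + 10000 × UMIs / total) with the total taken per cell. The authors also deposited a label per cell, used as it stands, except that spellings of SEMFs were joined and colon capillary, arterial and venous cells pooled as BECs. Pericytes (8 colon cells) and proliferating cells (4 and 24) were too few to compare.

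UMIs were summed per library and label with Python 3.11.15, scipy 1.17.1 and pandas 2.3.3, and divided by all UMIs of the label (CPM) with exact Poisson intervals. Shares carry exact Clopper-Pearson 95% binomial intervals and ratios exact conditional binomial intervals. A count of 0 was taken as 3 counts in ratios and in the figures of levels. Cells are not replicates and each tissue had 1 library, so no test was run. To compare shares, each cell was thinned to 2000 UMIs, which left out 69 colon and 343 small intestinal shallower cells. The median depth was 6598 UMIs per colon cell and 5943 per small intestinal cell. No doublets were removed, and whether any were before deposit is not stated. Alternatives left out the 6% of cells with the most UMIs, took colon cells with only Xist or only Y-linked UMIs (Ddx3y, Uty, Eif2s3y and Kdm5d), thinned cells, and weighted labels or cells equally. The ratio intervals were run on simulated Poisson counts, the setting they are built for. That run does not cover UMIs clustered in few cells. Named pathway genes are up to 3 per list with the largest called ratio, plus Wif1, Lrp5, Lrp6, Kremen1 and Axin2, which were chosen for their role. Nkd2 is named outside that rule, as the other target gene called higher in the colon. Genes leading the positive cells had at least 30 UMIs and detection in at least 10% of the positive cells (or negative cells for those lower), and 10 CPM were added to both levels. The 5 genes and the lists were chosen with earlier results of these data known. Some genes that these rules name are not reported here.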

Additional observations from a re-analysis of the deposited data

Results flagged for a closer look

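Sfrp1 was called higher in the colon in LECs and higher in the small intestine in 3 other labels, and these differences between labels were not tested. The log2 ratio was 1.41 in LECs, -1.34 in trophocytes, -1.48 in SEMFs and -2.80 in SMCs. It was -0.70 in CD81- FBs, the same side as those 3 but below 2-fold, and 2.59 in BECs, where 40 and 54 UMIs were too few for a call. The LEC value exceeded that of trophocytes by 2.75, that of SEMFs by 2.89 and that of SMCs by 4.22 on the log2 scale. In colon LECs 76 Sfrp1 UMIs came from 18 of 217 cells, and in small intestinal SEMFs 449 came from 94 of 1109 cells. The 40 UMIs of colon BECs came from 3 of 53 cells. The 5 pan-fibroblast genes summed to 3994 CPM in colon BECs and 383 CPM in small intestinal BECs, and their part in the BEC ratio was not tested.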

How the results depend on the processing

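Sfrp2 stayed higher in the colon and Dkk2 higher in the small intestine, past 2-fold in the pooled fibroblasts, under the 9 alternatives run. With the fibroblast labels given equal weight the log2 ratio was -4.53 for Dkk2, 0.45 for Dkk3, -0.94 for Sfrp1 and -0.47 for Frzb. With Y-linked colon cells it was 0.49 for Dkk3, -0.90 for Sfrp1 and -0.62 for Frzb, and with Xist-only cells 0.67, -0.67 and 0.15. Thinned to 2000 UMIs it was 0.52 for Dkk3 and -0.31 for Frzb, and relative to the median gene 0.75 for Dkk3, -0.56 for Sfrp1 and 0.033 for Frzb. The cause of these shifts was not tested. Of 153 values for 27 ratios in single types, 36 fell outside the main interval. Of the 60 levels in single types, 26 fell outside their main interval once cells were thinned to 2000 UMIs. The orders of types given above were read from the main intervals and were not checked after thinning. Pairs with a ratio interval above 1 numbered 1, against 2 at full depth and 0 without the cells with the most UMIs. Leaving out the 21 shared barcodes was added after the data had been seen. No paired analysis was possible because each tissue had 1 library. Depth limits low levels: 3 counts stand for 0.268 CPM in small intestinal LECs and for 11.1 CPM in colon BECs.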
